A study of Mus musculus with 18 samples.

Results

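The primitive streak and mesoderm factors described here are 10 transcription factor genes, *T*, *Mixl1*, *Eomes*, *Evx1*, *Mesp1*, *Mesp2*, *Tbx6*, *Gsc*, *Foxa2* and *Lhx1*. They were found by name among the 20115 genes of the deposited stage table, each as 1 of its 22089 transcription start sites (TSSs), and among the 20430 genes of a separate fibroblast table. The study sequenced RNA from 18 samples of mouse strain 129. Of these, 10 come from 1 embryonic stem cell (ESC) line with a green fluorescent reporter for Brachyury (Bry), the product of *T*, in 5 stages of 2 replicates each. The stages are undifferentiated ESCs grown on fibroblasts, mesoderm (MES, Bry+ and Flk1-) and hemangioblasts (HB, Bry+ and Flk1+) sorted from embryoid bodies, hematopoietic progenitors (HP, CD41+) and macrophages (MAC, CD11b+). Hemogenic endothelium (HE), which the study places between HB and HP, was not analysed here, so that the step from HB to HP and all counts and correlations over the 5 stages pass over it. The other 8 are single libraries of mouse embryonic fibroblasts (MEFs) of embryonic day 14.5, wild-type or carrying a doxycycline-inducible TAL1 transgene (iTal1-2A-GFP), with no genotype given per library. They were untreated (uFIB) or received Scl/Lmo2 (SL), Scl/Fli1/Gata2/Lmo2 (SFGL) or Fli1/Gata2/Lmo2 (FGL), and each condition was measured at day 12 and at day 21.

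In the early embryo the primitive streak is the strip of tissue through which epiblast cells pass to become mesoderm and definitive endoderm. WNT, NODAL, FGF and BMP signals act on the epiblast there, and T-box and homeobox factors are among the first genes to respond. Factors of the posterior streak mark cells on the way to mesoderm that includes blood, while those of the anterior streak and node mark cells on the way to endoderm and axial mesoderm. Blood arises from posterior and lateral mesoderm through the hemangioblast, a precursor of blood, endothelium and smooth muscle.

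All values are FPKM, fragment numbers scaled to transcript length and library size, in which the replicates of a stage are already combined into 1 value. No replicate error and no counting interval can be given, no difference was tested, and whether neighbouring values in an order of levels differ beyond their spread cannot be judged. A gene is said to have risen or fallen if it changed at least 2-fold and the higher of both stages had at least 1 FPKM. In bulk samples, fewer cells expressing a gene and less RNA per cell cannot be told apart. *T* is also the reporter gene of the sort, so that its high expression in MES and HB is what the gate selected, and Flk1 (*Kdr*) separates these 2 populations in the same way. The stages carried their defining markers, with *Pou5f1* at 383 FPKM in ESCs, *Kdr* at 2.15 in MES and 77.6 in HB, the CD41 gene *Itga2b* at 62.5 in HP and *Csf1r* at 234 in MAC. The embryonic globin gene *Hbb-bh1*, a red cell gene, was at 29.9 FPKM in ESCs against 0.268 in MES, and its part in the low ESC levels of the streak genes was not tested.

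RefSeq promoters, from 250 bases before to 50 bases after the start site on GRCm38.p6, were found for 9 of the 10 genes, all but *Mixl1*, and *Foxa2* had 3 of them. They were searched on both strands for AGGTGT, the core of the site bound by T-box factors, for CTTTGAT, the core bound by the TCF/LEF factors of WNT signalling, for TGTGNATT, bound by the NODAL effector FOXH1, and for the TATA box TATAAA. The 4 promoters with a T-box core site are shown because T-box factors are themselves members of the group, with each match in capitals, lower-case letters for the rest, and the strand of the gene.
T, chr17:8434173-8434472, plus strand: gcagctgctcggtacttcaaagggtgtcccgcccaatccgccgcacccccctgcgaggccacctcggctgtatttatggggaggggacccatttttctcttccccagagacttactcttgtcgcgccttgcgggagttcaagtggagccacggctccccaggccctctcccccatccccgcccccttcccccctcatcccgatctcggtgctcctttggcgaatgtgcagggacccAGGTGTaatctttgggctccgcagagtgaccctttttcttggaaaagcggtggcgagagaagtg
Evx1, chr6:52313248-52313547, plus strand: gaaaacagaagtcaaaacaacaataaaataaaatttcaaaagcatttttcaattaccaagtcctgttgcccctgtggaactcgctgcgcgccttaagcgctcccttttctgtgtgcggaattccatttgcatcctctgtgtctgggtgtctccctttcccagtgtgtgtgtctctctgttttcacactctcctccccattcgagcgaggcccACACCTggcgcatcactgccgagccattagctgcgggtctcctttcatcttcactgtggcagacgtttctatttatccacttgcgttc
Mesp1, chr7:79793541-79793840, minus strand: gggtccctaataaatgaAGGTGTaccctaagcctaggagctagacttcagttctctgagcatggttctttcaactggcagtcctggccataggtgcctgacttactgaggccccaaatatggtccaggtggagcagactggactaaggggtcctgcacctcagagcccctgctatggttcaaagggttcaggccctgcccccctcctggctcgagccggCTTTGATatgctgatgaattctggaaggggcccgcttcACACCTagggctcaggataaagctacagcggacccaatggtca
Mesp2, chr7:79810477-79810776, plus strand: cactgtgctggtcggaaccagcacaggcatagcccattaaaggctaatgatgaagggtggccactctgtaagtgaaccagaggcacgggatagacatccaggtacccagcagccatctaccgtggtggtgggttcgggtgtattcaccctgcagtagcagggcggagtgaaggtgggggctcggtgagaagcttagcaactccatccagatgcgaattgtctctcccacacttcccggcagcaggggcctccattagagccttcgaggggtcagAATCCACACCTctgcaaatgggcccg

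In *T* the core site lies 14 bases before the start site and in *Evx1* 38 bases before it, there as the reverse complement ACACCT. *Mesp1* has one 233 bases before and another 7 bases after the start, and between them a TCF/LEF core 31 bases before it. In *Mesp2* the core site starts 29 bases after the start site, and the FOXH1 match that starts 24 bases after it overlaps the core site, so that both stand in 1 run of capitals. The T-box core site was thus present in 4 of the 11 promoters, those of 4 of 9 genes, and 13.7% of all 32851 promoters of this length hold it. The TCF/LEF core in the form CTTTGAT was found in *Mesp1* and in 1 promoter of *Foxa2* (3.73% of all promoters). The FOXH1 motif was found in *Mesp2* alone (3.60%), and the TATA box in *Tbx6*, *Gsc* and 1 promoter of *Foxa2* (13.6%). Such matches describe letters and not binding, and no match was found in the windows of *Eomes* and *Lhx1*. CpG dinucleotides ranged from 4 in *Mesp1* to 31 in *Lhx1*, with a median of 12 over the 11 promoters against 7 over all.

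Of the factors expressed along the whole streak, *T* was the most abundant gene of the group in MES and *Mixl1* in HB. *T*, chr17:8434423-8442496 on GRCm38, encodes the T-box factor Brachyury, which is needed for posterior mesoderm and the notochord. It was at 3.36 FPKM in ESCs, 142 in MES, 36.4 in HB, then 0.141 in HP and listed at 0 in MAC. *T* stood at rank 123 of all genes in MES and at rank 1147 in HB. Its level was 42.3-fold higher in MES than in ESCs, and on the log2(FPKM + 1) scale the rise of 5.04 was the second largest (rank 2) of all 20115 genes. From MES to HB, both sorted as Bry+, it was 3.9-fold lower.

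*Mixl1*, chr1:180693048-180697034, is a homeobox gene of the streak known for its part in mesoderm and endoderm patterning. It was at 2.91 FPKM in ESCs, 46.9 in MES, 80.4 in HB, then 0.127 in HP and 0.00879 in MAC. *Eomes*, chr9:118478189-118486132, is a T-box gene needed for cells to leave the streak and for the onset of *Mesp1* expression. It followed the same course, at 3.68 FPKM in ESCs, 34.9 in MES, 55 in HB, then 0.138 in HP and 0.00378 in MAC. Both genes were thus highest in HB, where *Mixl1* was 1.71-fold and *Eomes* 1.58-fold above MES, under the 2-fold limit, while *T* went the other way. Read within a stage, which needs no scaling between stages, *T* was at 3.03 times the level of *Mixl1* in MES and at 0.453 times in HB. Against *Eomes* the same ratio went from 4.07 to 0.662.

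**Figure D1:**
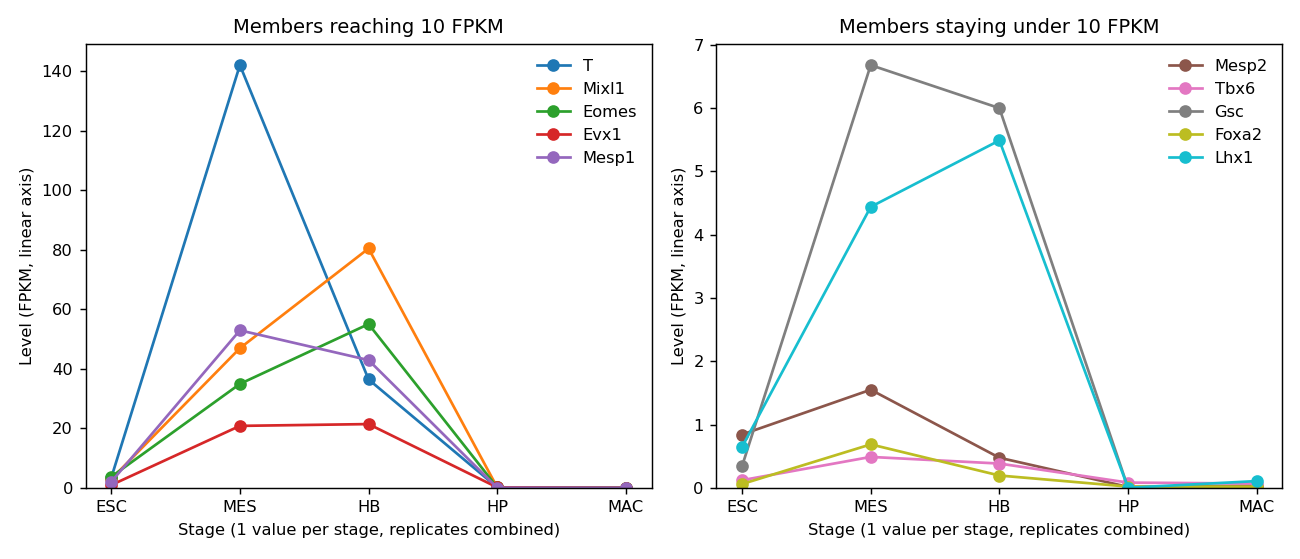
Level in FPKM (linear vertical axes differ in range) of each gene in the 5 stages, with 1 value per stage in which the authors combined the replicates. On the left, *T* peaks at 142 in MES while *Mixl1* and *Eomes* peak in HB at 80.4 and 55, and on the right *Gsc* and *Lhx1* reach 6.68 and 5.49 while *Mesp2*, *Tbx6* and *Foxa2* stay at or under 1.55.

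*Evx1*, a homeobox gene of the posterior streak at chr6:52313498-52318378, was at 0.91 FPKM in ESCs, 20.8 in MES, 21.4 in HB, then 0.129 in HP and listed at 0 in MAC. The 22.9-fold rise into MES was followed by almost the same level in HB, and the difference from MES to HB of 0.04 on the log2(FPKM + 1) scale became -0.11 when the stages were scaled to the same upper quartile. The gene span of *Evx1* overlaps that of the antisense gene *Evx1os* over 1335 of its 4881 bases, and that of *Eomes* the antisense gene *Gm33460* over 574 of 7921 bases of its GENCODE model. In the transcripts, searched on both strands, 26 of 2875 stretches of 50 bases, the read length, of *Evx1* (0.904%) also occurred in *Evx1os*, and 70 of 4150 of *Eomes* in *Gm33460*. The study made RNA-seq density profiles for each strand, but whether the FPKM values were calculated by strand is not given in the sources used here, so without strand reads from these few stretches could belong to either gene.

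*Mesp1* and *Mesp2* are neighbouring bHLH genes on chromosome 7 with 17136 bases between them, *Mesp1* at chr7:79792241-79793590 and *Mesp2* at chr7:79810727-79813431. *Mesp1* marks nascent mesoderm, including the precursors of the heart, and *Mesp2* sets the borders of the somites. *Mesp1* was at 2 FPKM in ESCs, 52.9 in MES, 42.9 in HB, then 0.00916 in HP and listed at 0 in MAC, a 26.4-fold rise into MES. *Mesp2* was at 0.842 FPKM in ESCs, 1.55 in MES, 0.475 in HB, then 0.0139 in HP and 0.0338 in MAC. The neighbours thus differed in level and in course, with *Mesp1* at 34.1 times the level of *Mesp2* in MES and 90.3 times in HB. *Mesp2* was 1.84-fold higher in MES than in ESCs, under the limit, and 3.26-fold lower in HB than in MES. At the read length of 50 bases, 0 of 1226 stretches of the *Mesp1* transcripts and 1 of 1895 of those of *Mesp2* also occurred in transcripts of another gene.

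*Tbx6*, at chr7:126781483-126785548, is the T-box gene that directs cells to a paraxial rather than a neural fate. It stayed low in each stage, at 0.12 FPKM in ESCs, 0.488 in MES, 0.383 in HB, then 0.0821 in HP and 0.0671 in MAC. It and *Foxa2* never reached 1 FPKM and so entered no count of changes.

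The anterior streak and node factors reached lower levels than *T*, *Mixl1*, *Eomes*, *Evx1* and *Mesp1*. *Gsc*, chr12:104471209-104473236, is the homeobox gene of the organizer. It was at 0.343 FPKM in ESCs, 6.68 in MES, 6 in HB and listed at 0 in HP and MAC, and it rose 19.5-fold into MES. *Lhx1*, chr11:84519379-84525534, is a LIM homeobox gene expressed in the organizer and in lateral and intermediate mesoderm. It was at 0.646 FPKM in ESCs, 4.44 in MES, 5.49 in HB, listed at 0 in HP and at 0.106 in MAC. *Foxa2*, chr2:148042878-148046969, is a forkhead gene needed for the node and for definitive endoderm. It was at 0.0595 FPKM in ESCs, 0.686 in MES, 0.194 in HB, then 0.0192 in HP and 0.018 in MAC, so that its highest value lay in MES but under the limit of 1 FPKM. *Gsc* was at 9.73 times the level of *Foxa2* in MES and 30.9 times in HB. *Foxa2* is also expressed in visceral endoderm, and none of 6 markers of that tissue (*Afp*, *Ttr*, *Apoa1*, *Apob*, *Hnf4a* and *Amn*) reached 1 FPKM in ESCs, MES, HB or HP. Their summed level was 0.487 FPKM in MES, 0.289 in HB and 1.21 in MAC, with *Afp* and *Ttr* listed at 0 in MES.

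From ESCs to MES, 7 of the 8 members that reached 1 FPKM in either stage rose, where 11.3% of 10626 tested genes did, and 0 fell, where 12.0% did. The exception was *Mesp2*, and the 7 include *T*, whose high level in MES the Bry gate of the sort selected. On the log2(FPKM + 1) scale, *T*, *Mesp1*, *Mixl1*, *Evx1* and *Eomes* gained 5.04, 4.17, 3.62, 3.51 and 2.94, at ranks 2, 4, 6, 9 and 17 of all genes. *Gsc* gained 2.52 (rank 31) and *Lhx1* 1.72 (rank 148). ESCs nevertheless held some of each transcript, from 2.37% of the highest stage for *T* to 11.8% for *Lhx1* among the 7 that rose.

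From MES to HB, 2 of 8 tested members fell, *T* and *Mesp2*, where 6.30% of 10229 genes did, and 0 rose, where 4.05% did. On the log2(FPKM + 1) scale *T* fell by 1.94 and *Mesp2* fell by 0.79. Both remained lower when the stages were scaled to the same upper quartile, at differences of -2.10 and -0.92. The median of 10833 genes shifted by 0.11 between these stages as deposited, and relative to it *T* was at -2.05, *Mixl1* at 0.65 and *Eomes* at 0.53. The call of *Mesp2* rests on low values and was lost with a minimum of 5 FPKM or a pseudocount of 1, and both calls were lost with a limit of 4-fold.

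**Figure D2:**
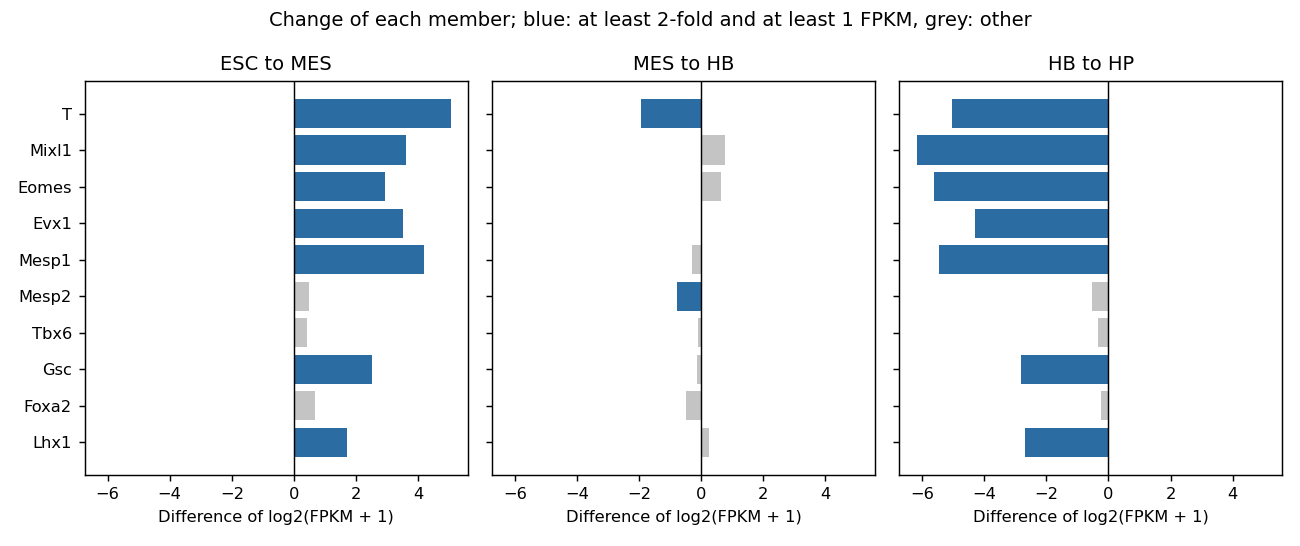
Difference of log2(FPKM + 1) of each gene at 3 transitions, later minus earlier stage, with blue bars for changes of at least 2-fold where the higher stage has at least 1 FPKM and grey bars for the others. Blue bars lie right of 0 for 7 genes into MES and left of 0 for the same 7 into HP, while from MES to HB the bar of *T* is at -1.94 and that of *Mixl1* at 0.76.

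From HB to HP the expression of the group fell to near 0. All 7 tested members fell, where 12.8% of 10523 genes did, and 0 rose, where 12.2% did. The 7 include *T*, for whose reporter HB but not HP was sorted. On the log2(FPKM + 1) scale *Mixl1* fell by 6.18, *Eomes* fell by 5.62, *Mesp1* fell by 5.44, *T* fell by 5.04 and *Evx1* fell by 4.31, at ranks 3, 5, 7, 11 and 17 of the falls of all genes. *Gsc* fell by 2.81 and *Lhx1* fell by 2.70, both to values listed at 0. In HP and MAC, 8 of 8 members that had reached 1 FPKM in MES or HB were under 1 FPKM, as were 7.69% of such genes in all. The summed level of 6 fibroblast markers moved the other way, from 5.53 FPKM in HB to 60 in HP. It had been 5.42 in MES and was later 2.75 in MAC. Of these markers, 4 of 4 tested genes rose at the step from HB to HP. *Postn* went from 0.0299 to 23.3, *Col1a2* from 0.897 to 17.6, *Col1a1* from 3.58 to 13.1 and *Col3a1* from 0.0456 to 6.13. *Thy1* and *Prrx1* were under 1 FPKM in both stages and so were not counted. *Thy1* was lower in HP, at 0.00523 against 0.931 in HB, while *Prrx1* was at 0.05 against 0.0495. The part of the fibroblast markers in the fall of the members was not tested. Since no member reached 1 FPKM in HP or MAC, none was counted from HP to MAC. Over all 5 stages, 4 of 8 members were highest in MES (*T*, *Mesp1*, *Mesp2* and *Gsc*), as were 6.12% of 12008 genes, and 4 in HB (*Mixl1*, *Eomes*, *Evx1* and *Lhx1*), as were 17.9%. With the stages scaled to the same upper quartile, 5 were highest in MES, *Evx1* among them.

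The summed level of the 10 genes was 14.9 FPKM in ESCs, 311 in MES, 249 in HB, then 0.659 in HP and 0.238 in MAC. Its make-up differed between MES and HB. *T* made up 45.6% of it in MES and 14.6% in HB, while *Mixl1* went from 15.1% to 32.3% and *Eomes* from 11.2% to 22.1%. The share of *Mesp1* was 17% in MES and 17.3% in HB. In ESCs, *Eomes* had the largest share at 24.7%, followed by *T* at 22.6% and *Mixl1* at 19.6%.

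**Figure D3:**
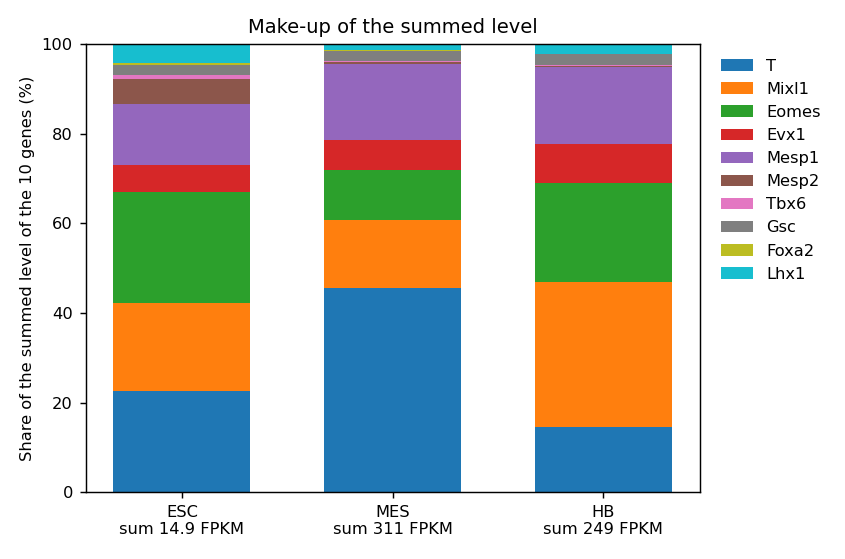
Share of each gene in the summed level (FPKM) of the 10 genes in ESC, MES and HB, with the sum written under each bar. *T* takes 45.6% of the bar in MES and 14.6% in HB, and *Mixl1* and *Eomes* take more in HB at 32.3% and 22.1%.

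The genes around the group were described by lists, whose counts stand beside the shares of all genes given above for each step. Of 8 streak signals, 5 rose from ESCs to MES (*Wnt3*, *Wnt3a*, *Lefty2*, *Fgf8* and *Bmp4*) and the epiblast growth factor gene *Fgf4* fell. *Fgf8*, needed for cells to migrate away from the streak, went from 0.659 FPKM in ESCs to 74.8 in MES and 6.76 in HB. *Wnt3*, needed to start the streak, went from 5.61 to 23.1 and 21.9. Between MES and HB, 5 of 8 fell (*Wnt3a*, *Nodal*, *Lefty2*, *Fgf4* and *Fgf8*) and *Bmp4* rose, with a list median of -1.04 on the log2(FPKM + 1) scale against 0.11 over all genes. *Nodal* was at 35.9 FPKM in MES and 6.76 in HB, while *Bmp4*, which favours ventral and lateral mesoderm, was at 10.9 and 39.4. All 7 tested signals fell from HB to HP.

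Partners of *Mesp2* and *Tbx6* in the paraxial mesoderm rose with the group in part. Of 6 tested genes of this list of 9, *Msgn1*, *Dll1*, *Dll3* and *Pcdh8* rose into MES and *Tcf15* fell. *Msgn1*, a presomitic bHLH gene, was listed at 0 in ESCs and was at 11.1 FPKM in MES and 2.23 in HB. Into HB, 4 of 6 fell and 0 rose. *Hes7*, *Meox1* and *Ripply2*, which act in the segmenting mesoderm and the somites, stayed under 1 FPKM throughout, as *Tbx6* did. Of the posterior streak list, 3 of 8 genes were tested into MES, and *Cdx2* (1.87 to 18.3 FPKM) and *Sp5* (3.91 to 19.5) rose. Both fell from MES to HB, where *Evx1* did not.

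Of 10 node and definitive endoderm genes other than the members, *Sox17*, *Foxa1*, *Cer1*, *Chrd*, *Noto* and *Shh* stayed under 1 FPKM in each stage. Over all genes, 12008 of 20115 reached 1 FPKM in at least 1 stage. From ESCs to MES 0 of 4 tested genes of the list rose, where 11.3% of all tested genes did, and 1 (*Foxa3*) fell, where 12.0% did. Into HB, *Hhex*, which is also a gene of blood and endothelial precursors, rose from 0.905 to 4.74 FPKM, and *Foxa3* and *Otx2* fell, with *Otx2* going from 13.9 to 4.9. Epiblast and pluripotency genes ran against the group into MES, with 4 of 7 falling (*Sox2*, *Zfp42*, *Esrrb* and *Pou3f1*) and *Fgf5*, a marker of the primed epiblast, rising from 2.42 to 17.2 FPKM. Into HB 7 of 7 fell, and *Pou5f1* was still at 220 FPKM in MES and 47.9 in HB.

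Lateral mesoderm and hemangioblast genes rose as *T* fell. From MES to HB, 8 of 8 rose (*Kdr*, *Etv2*, *Tal1*, *Lmo2*, *Hand1*, *Foxf1*, *Pdgfra* and *Gata4*), where 4.05% of all tested genes did. Their median was 2.29 against 0.11 over all genes. The count and the median include *Kdr*, the sorting marker, whose rise the gate selected. *Etv2*, which specifies blood and endothelium, was at 8.45 FPKM in MES and 46.7 in HB, and *Hand1* at 7.14 and 20.8. *Pdgfra*, counted in this list, is also a paraxial and cardiac marker and was at 6.3 and 16.7. It was not counted with the paraxial list, of which 0 genes rose at this step. Of the 13 other T-box genes found in the stage table, 2 reached 1 FPKM in ESCs or MES, and neither rose or fell. From MES to HB, *Tbx3* rose from 3.99 to 32.5 FPKM, *Tbx20*, a heart gene, from 2.76 to 11.3 and *Tbx2* from 0.237 to 1.65. In HB, *Tbx3* was therefore near the 36.4 FPKM of *T*, and *Eomes* was above both.

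**Figure D4:**
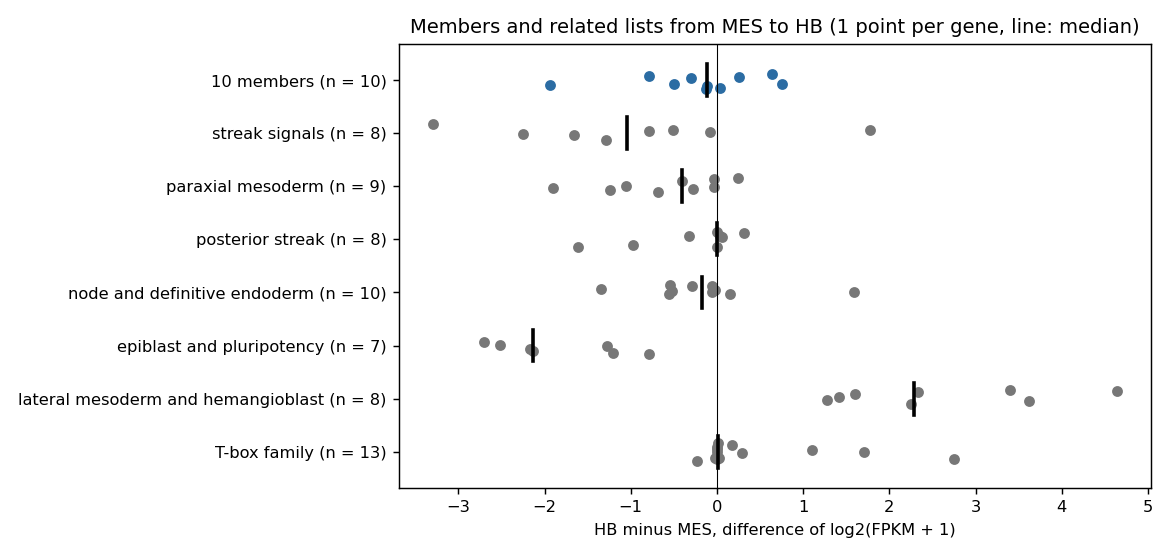
Difference of log2(FPKM + 1), HB minus MES, for the 10 members (blue) and the genes of 7 lists (grey), 1 point per gene with a line at the median and vertical scatter only to separate points. Members lie between -1.94 for *T* and 0.76 for *Mixl1*, the 8 lateral mesoderm genes all lie above 0 with a median of 2.29, and the 7 epiblast genes all lie below it with a median of -2.14.

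For the 5 members that reached 10 FPKM, the genes with the most similar course were sought among 7016 genes with at least 10 FPKM in 1 stage or more, by Pearson's r on log2(FPKM + 1) over the 5 stages. With 5 points that share the scaling of each stage, 35 to 73 genes had an r above 0.95, and r is given as a description that takes no account of the size of a change. Nearest to *Mixl1* were *Cyp26a1* (r = 0.9990), which encodes an enzyme that degrades retinoic acid, *Pbdc1* (0.9989) and *Eomes* (0.9978). *Cyp26a1* was at 3.29 FPKM in ESCs, 50 in MES, 115 in HB, then 0.204 in HP and 0.00845 in MAC, while *Pbdc1* only ranged from 7.6 to 12.1. Nearest to *Eomes* were *Mixl1* (0.9978), *Ptpn2* (0.9968) and *Cyp26a1* (0.9965). *Wnt5b*, a gene for a WNT ligand, came first for both *Evx1* (0.9986) and *Mesp1* (0.9987), at 1.06, 19.5, 16.6, 0.123 and 0.0255 FPKM in the 5 stages. *Evx1* was followed by *Mesp1* (0.9959) and *Zfp217* (0.9948), and *Mesp1* by *Spata13* (0.9973) and *Evx1*. *T* had *Utp14b* (0.9962), *Spata13* (0.9928) and *Bcat1* (0.9912) nearest to it and no other member. Between members, r ran from 0.953 for *T* with *Mixl1* and with *Eomes* to 0.998 for *Mixl1* with *Eomes*.

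In the MEFs the group stayed under 1 FPKM except for *Tbx6*. Of the 10 members, 1 reached 1 FPKM in any of the 8 libraries, where 63.2% of 20430 genes did. Of the 80 member values, 37 were listed at 0, and the share of such values over all genes was not calculated. *Foxa2* was listed at 0 in all 8, *Evx1* and *Lhx1* in 7, *Mesp1* in 6, *T* in 5 and *Mixl1* in 4. The highest value of *T* was 0.0383 FPKM, that of *Eomes* 0.215 and that of *Mesp1* 0.107. This table was normalized apart from that of the stages, and levels were not compared between them.

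The exception was *Tbx6*, the lowest of the T-box members in MES. At day 12 the untreated library held 1.59 FPKM of *Tbx6*, SL held 2.61, SFGL held 2.58 and FGL held 1.62. At day 21 the values were 0.304, 1.37, 0.887 and 1.05 in the same order. Each treated library was above the uFIB library of its day, by 1.64, 1.62 and 1.02 times at day 12 and by 4.51, 2.92 and 3.45 times at day 21, where uFIB was the lowest of all 8. There is 1 library per condition, so the spread between replicates is unknown and no test was run. The libraries labelled FGL go against their label in part, with *Tal1*, which FGL does not include, at 7.04 FPKM at day 12 against 0.0414 in uFIB, and Fli1, which it does include, at 3.35 at day 21 against 3.02. Without the library labelled FGL, *Tbx6* was above uFIB in the other 2 treated libraries of each day and *Gsc* below it. *Gsc*, under 1 FPKM in all 8, was lower in each treated library than in uFIB of the same day, at 0.339 in uFIB against 0.0497 to 0.108 at day 12 and at 0.71 against 0.218 to 0.481 at day 21. The libraries also differed in the summed level of the 6 fibroblast markers, from 924 to 7059 FPKM. What part differing cell mixtures had in the values of *Tbx6* and *Gsc* was not tested. Other T-box genes were expressed in the fibroblasts, with *Tbx15* at 8.79 to 26 FPKM and *Tbx18* at 2.3 to 5.61. *Tbx15* is a gene of limb and skin mesenchyme. Its day 12 level of 24.3 without treatment compared with 10.9 after SL, 10.2 after SFGL and 26 after FGL. By day 21 the untreated level was 15.5, against 8.79, 10.3 and 15.3 in the same order. Of 14 other T-box genes, 4 (*Tbx3*, *Tbx15*, *Tbx18* and *Mga*) reached 1 FPKM in all 8 libraries. The share of all genes that did so was not calculated, so this count has no background beside it.

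**Figure D5:**
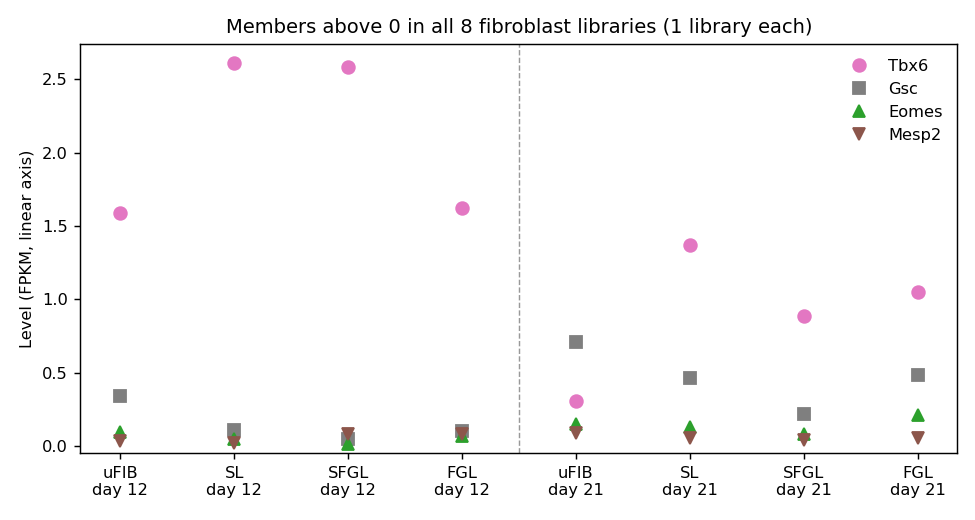
Level in FPKM (linear axis) of the 4 members above 0 in all 8 fibroblast libraries, 1 library per point, with day 12 left and day 21 right of the dashed line. *Tbx6* lies above the other 3 in each library but uFIB at day 21, where *Gsc* is higher at 0.71 against 0.304.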

How the data were processed

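Gene expression was measured by RNA-seq of ribosomal RNA-depleted total RNA. According to the methods of the study, the authors aligned single-end reads of the stages to mm10 (GRCm38) by SHRiMP, with only reads of unique position kept, duplicates taken out by Picard and expression calculated by Cufflinks; versions are not given in the sources used here. The processing notes of the ESC samples name Bowtie and HOMER instead and those of the MEFs TopHat and Cufflinks. The deposited values are FPKM, as the authors calculated them, with 1 value per TSS and stage (replicates combined) and 1 per gene and MEF library. The study lists aligned reads per library in a supplement, which were not used here. Since the reads behind each gene cannot be read from FPKM, no counting error is given. In the stage table, 1 further column of values (hemogenic endothelium, HE) was not used because no sample is mapped to it.

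TSS values were summed per gene. A change was counted at 2-fold or more on FPKM + 0.001 where the higher stage had at least 1 FPKM, and sizes are differences of log2(FPKM + 1). The medians over all genes cover those with a mean of at least 1 FPKM over the stages. Alternatives were a 4-fold limit, 5 FPKM or no minimum, pseudocounts of 0.1 and 1, and 0.5 FPKM in the MEFs. Others were the TSS with the highest mean alone and scaling to the same upper quartile (percentile 75). For the lists, scaling was added after the data were seen. The members and lists were chosen with earlier results of these data known. Named were the members, listed genes that changed into MES or HB with at least 10 FPKM, marker genes and the 3 genes most like each abundant member in course; other listed genes were named after their values were seen. Positions are those of the deposited table, counted from 1, set beside GENCODE M21, and promoters are RefSeq's. The counting of changes was tested on simulated data. Python 3.11.15, NumPy 2.4.6, pandas 2.3.3 and matplotlib 3.10.9 were used.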

Additional observations from a re-analysis of the deposited data

How the results depend on the processing

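With the replicates combined in each stage and 1 library per MEF condition, no result has a replicate error, leaving out a replicate was not possible, and differences near 2-fold, such as those of *Mixl1* and *Eomes* from MES to HB, have no check against replicates. FPKM values do not hold the reads behind each gene, so no upper limit is given for values listed at 0. No paired analysis was possible because the stage columns carry no replicate numbers. The number of members that fell from MES to HB, 2 as reported, was 1 with at least 5 FPKM (*T*), 0 with a limit of 4-fold and 1 with a pseudocount of 1 FPKM (*T*). From HP to MAC, where 0 members were counted, dropping the minimum FPKM gave 2 that rose and 5 that fell, all on values under 1 FPKM. The other 47 of 52 counts over members stayed within 1.5 times the reported count. Part of these could not have differed. Each member has 1 TSS, so counts on the TSS with the highest mean alone repeated the reported ones. A reported count of 0 also cannot rise under a stricter limit. Of 80 differences of single members recomputed with a pseudocount of 0.1 FPKM or upper quartile scaling, 79 kept their sign. The exception was *Evx1* from MES to HB, at 0.04 and at -0.11 after scaling. Only scaling could change a sign, since a pseudocount cannot. The 32 of 32 recomputed values of counted changes that kept their sign could not have done otherwise. Upper quartiles of 10.2 FPKM in ESCs, 10.2 in MES, 11.4 in HB and 10.8 in HP are too alike to reverse a 2-fold change. The 28 counts over lists stayed within 1.5 times after scaling, although *Nog* joined the genes that fell into HB. With a limit of 0.5 FPKM, SFGL and uFIB at day 21 each went from 0 to 1 member.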
